A study of Mus musculus with 2 samples.

Results

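The genes described here are the mouse ribosomal protein genes, the protein parts of the ribosome, together with the paralogs that carry a close relative of one of these proteins, in 2 single-cell RNA libraries of dissociated testis. Members were chosen by symbol and not by any measured value: every symbol made of Rpl or Rps and a number, with the short suffixes that mark X-linked, alternative or paralogous genes, plus Rplp0, Rplp1, Rplp2 and Rpsa. Named pseudogene copies and the S6 kinases were left out. The rule found 89 of the 39232 genes listed in both libraries. They comprise 77 core genes, of which 40 autosomal genes encode large-subunit proteins, 30 encode small-subunit proteins, 3 encode the P-stalk and 4 lie on the X chromosome (Rpl10, Rpl36a, Rpl39 and Rps4x). The rest are 7 paralogs (Rpl10l, Rpl39l, Rps4l, Rpl22l1, Rps27l, Rpl7l1 and Rpl3l) and 5 genes whose symbols have the form of a functional gene but which are copies of one (Rpl32l, Rpl6l, Rps12l1, Rps3a2 and Rps3a3). The name of the set, with its testis paralogs, held for Rpl10l, Rpl39l and Rps4l in that they were abundant in the germ cells. Rpl22l1 and Rps27l were abundant there too, so abundance did not set the first-named genes apart. The name did not hold for Rpl3l, which had 79 UMIs (unique molecular identifiers, each standing for 1 captured RNA molecule) in all cells.

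Ribosomes are built from 1 copy of nearly every one of these proteins, so the core genes are usually expressed together and at similar strength, and more in growing and dividing cells. In male germ cells the X chromosome is transcribed little once meiosis reaches pachytene, a state called meiotic sex chromosome inactivation, and its genes stay largely silent in the round spermatids that follow. Several X-linked housekeeping genes have an autosomal retrocopy, a copy made from spliced RNA, that is expressed in these stages. Rpl10l is known as such a copy of Rpl10, and male mice without it are known to be infertile. Rpl39l, a relative of Rpl39, encodes a protein of the tunnel through which the new peptide leaves the ribosome, and is known for its high expression in the male germ line.

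The mice were C57 BL/6 males, bought at 5 weeks of age, kept for 1 week to adapt and fed for 12 weeks on their diet. The study describes 20 mice, 10 per diet, and a high-fat diet that gave 60% of its energy as fat. One library is labelled as testis of high-fat feeding, and the label of the other gives the tissue and no diet, so it is called the library with no diet named. Each group is thus 1 library. Whether 1 animal or a pool went into a library is not stated in the labels, which give no altered allele for either. No spread between animals can be had, so no difference below was tested. The intervals are exact 95% intervals for counting error only. Molecules counted from PCR-amplified reads and cells of 1 library share their source, which these intervals leave out.

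The library with no diet named held 13805 cell barcodes and 207667609 UMIs, and the high-fat library 12661 barcodes and 201842085 UMIs. After filters and removal of likely doublets, 13286 and 12196 cells remained, with medians of 12917.5 and 9446 UMIs per cell. The labels call the cells germ cells, but clusters with Sertoli, Leydig, stromal, endothelial and lymphoid markers were present. Cells were clustered without the ribosomal protein genes among the genes that set the clusters, and each of 22 clusters was named from fixed markers, so that a stage name below means cells that resemble that stage. The 2 libraries stood apart in meiosis and after it. Cluster 5 held the spermatogonia of both libraries and cluster 15 the leptotene and zygotene cells of both. Pachytene cells came mostly from cluster 9 in the library with no diet named (1235 cells) and from cluster 8 in the high-fat library (898 cells, with 390 of the other library). Cells near the meiotic divisions came from cluster 2 and cluster 0, early round spermatids from clusters 7 and 14, middle ones from clusters 1 and 6 against 12, and late ones from clusters 13 and 4, the first-named holding the library with no diet named. Between libraries, a stage from pachytene on thus compares largely different clusters.

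The main pairs of an X-linked parent and an autosomal paralog are shown by their coding sequences, whose letters show where the members of a pair differ. Where the counted reads lie along these genes was not examined. Coding sequences came from GENCODE M21 on the GRCm38 build, run from 5′ to 3′ and leave out the stop codon, with capitals at every base that differs within the pair. Rpl39 lies at chrX:37082520-37085402 on the minus strand, and Rpl39l at chr16:10170226-10174911 on the plus strand.
Rpl39: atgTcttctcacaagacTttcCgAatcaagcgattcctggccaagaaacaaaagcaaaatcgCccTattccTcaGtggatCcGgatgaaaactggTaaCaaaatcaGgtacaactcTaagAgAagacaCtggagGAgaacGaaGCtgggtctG
Rpl39l: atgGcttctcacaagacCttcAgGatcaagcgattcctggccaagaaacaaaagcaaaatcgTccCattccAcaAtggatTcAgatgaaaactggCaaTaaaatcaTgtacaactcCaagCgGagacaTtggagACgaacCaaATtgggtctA
These differ at 23 of 153 bases (identity 84.97%), in 21 of 51 codons, with 16 of the differences at the last codon position.

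Rpl10 lies at chrX:74270812-74273135 on the plus strand with 7 exons, and Rpl10l at chr12:66283379-66284401 on the minus strand with 1 exon. The first 180 coding bases, which hold 30 differences, are shown.
Rpl10: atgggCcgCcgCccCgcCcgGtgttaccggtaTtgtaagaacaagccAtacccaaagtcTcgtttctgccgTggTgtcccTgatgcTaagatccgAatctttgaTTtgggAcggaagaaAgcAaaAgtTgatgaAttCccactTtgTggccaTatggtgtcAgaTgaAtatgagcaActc
Rpl10l: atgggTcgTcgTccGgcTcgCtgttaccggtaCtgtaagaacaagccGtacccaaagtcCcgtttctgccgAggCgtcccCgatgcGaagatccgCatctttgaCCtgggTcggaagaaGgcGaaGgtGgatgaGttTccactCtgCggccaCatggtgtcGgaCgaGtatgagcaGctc
Over all 642 coding bases the pair differs at 98 (identity 84.7%), in 96 of 214 codons, and 89 of the differences lie at the last codon position. The retrocopy therefore differs from its parent mostly at bases that often leave the amino acid unchanged. The other pairs of X-linked parent and autosomal relative are Rps4x with Rps4l, alike at 79.9% of 783 aligned bases, and Rpl36a with Rpl36al, alike at 87.7% of 318. Rps4l, on chromosome 6, is annotated as a transcribed processed pseudogene with 1 exon.

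As a share of all UMIs, the 89 genes were highest in spermatogonia and lower at each later stage up to late round spermatids in both libraries. In spermatogonia they made up 9.36% of UMIs (interval 9.32 to 9.39) in the library with no diet named and 8.84% (8.81 to 8.87) in the high-fat library. The share was 5.21% and 5.94% in leptotene and zygotene cells, 4.28% and 5.56% in pachytene cells, and 3.97% and 4.50% near the divisions. It was 3.89% and 4.30% in early, 3.35% and 3.77% in middle and 2.56% and 3.07% in late round spermatids, and 2.88% and 3.12% in elongating spermatids. Between spermatogonia and all round spermatids the log2 ratio of the share was -1.48 and -1.31.

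The share and the number of molecules did not follow each other. Spermatogonia held a mean of 341 member UMIs per cell in the library with no diet named and 325 in the high-fat library, at median totals of 2308 and 2247 UMIs. Leptotene and zygotene cells held 190 and 204, pachytene cells 911 and 1599, late round spermatids 481 and 711, and elongating spermatids 136 and 214. From pachytene cells to late round spermatids the lower share thus went with more captured ribosomal protein molecules per cell than in spermatogonia, at median totals of 15078 and 19520 UMIs in pachytene cells. Less RNA of this family and more RNA of other genes cannot be told apart from a share alone. Genes of other cell types were detected in every class, and their level was used to estimate free RNA from broken cells. The estimate rested on elongating spermatid genes in spermatogonia (31% and 41.4%) and on Sertoli genes in late round spermatids (29.0% and 18.3%). With this estimate subtracted the difference was wider, at 11.8% and 11.9% in spermatogonia against 2.06% and 2.79% in late round spermatids. Whether the 2 gene lists measure free RNA alike was not tested.

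**Figure D1:**
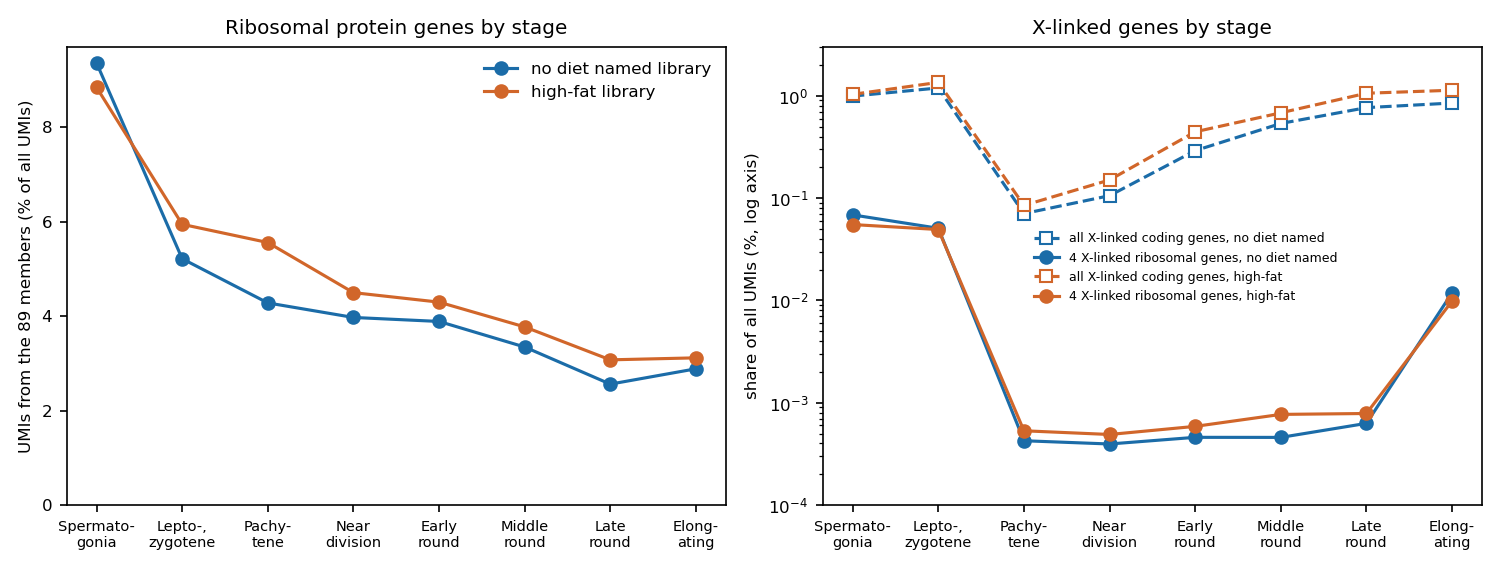
Left, share of UMIs from the 89 ribosomal protein genes (y axis, percent of all UMIs) in each germ cell stage (x axis) for both libraries; right, the share of the 4 X-linked members (filled points) and of all X-linked coding genes (open squares) on a log axis. Each point is a sum over the cells of 1 library, and the family's share was highest in spermatogonia, at 9.36% and 8.84%, and lowest in late round spermatids, at 2.56% and 3.07%.

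All 73 autosomal core genes had a lower share in round spermatids than in spermatogonia in both libraries, though by unequal amounts. The median log2 ratio of CPM (UMI counts of a gene relative to all UMIs of the same cells, with no length correction) over the 73 autosomal core genes was -1.77 in the library with no diet named and -1.49 in the high-fat library. Over all genes compared the medians were -0.91 and -0.71. At least 2-fold lower levels were found for 60 of 73 and 54 of 73, where 48.6% and 44.7% of all genes compared were as much lower, and none of the 73 was 2-fold higher, where 18% and 18.6% of all genes were. The large-subunit genes had medians of -1.60 and -1.36 and the small-subunit genes -2.01 and -1.70. A scale set by the median ratio of genes outside the family moved zero by -0.98 and -0.81. On that scale the autosomal core medians were -0.79 and -0.68, and 12 of 73 and 13 of 73 genes lay above zero.

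The genes that kept the largest share were Rpl30 of the large subunit, and Rps20 and Rps7 of the small subunit. The log2 ratio of round spermatids over spermatogonia was -0.31 and -0.23 for Rpl30, -0.52 and -0.20 for Rps20, and -0.37 and -0.40 for Rps7. These 3 genes changed sign under the median-ratio scale, to 0.66 and 0.58 for Rpl30, 0.46 and 0.61 for Rps20, and 0.61 and 0.41 for Rps7, so their direction rests on the scaling. Among autosomal core genes Rpl14, of the large subunit, had the lowest ratio. Its level was 117 CPM in spermatogonia and 1.92 CPM in round spermatids in the library with no diet named, and 971 and 18.3 CPM in the high-fat library, log2 ratios of -5.92 and -5.73. Rps3, a small-subunit protein at the site where mRNA enters the ribosome, had 941 against 86.9 CPM and 793 against 60.5 CPM, log2 ratios of -3.44 and -3.71. Rpl14 and Rps3 were thus far below the family's median in both libraries, and Rpl14 also differed between the libraries at each stage, as given below. Rpl41, which encodes a very short large-subunit protein, had the most UMIs of the family (762032), at 3957 CPM in spermatogonia and 1949 CPM in round spermatids in the library with no diet named, and 3095 and 1570 CPM in the high-fat library. Rpl39l came next with 742026 UMIs, then Rps14 with 598177 and Rps20 with 518081. The fewest UMIs belonged to Rps12l1 (64), Rpl3l (79), Rpl32l (157) and Rps3a3 (269).

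**Figure D2:**
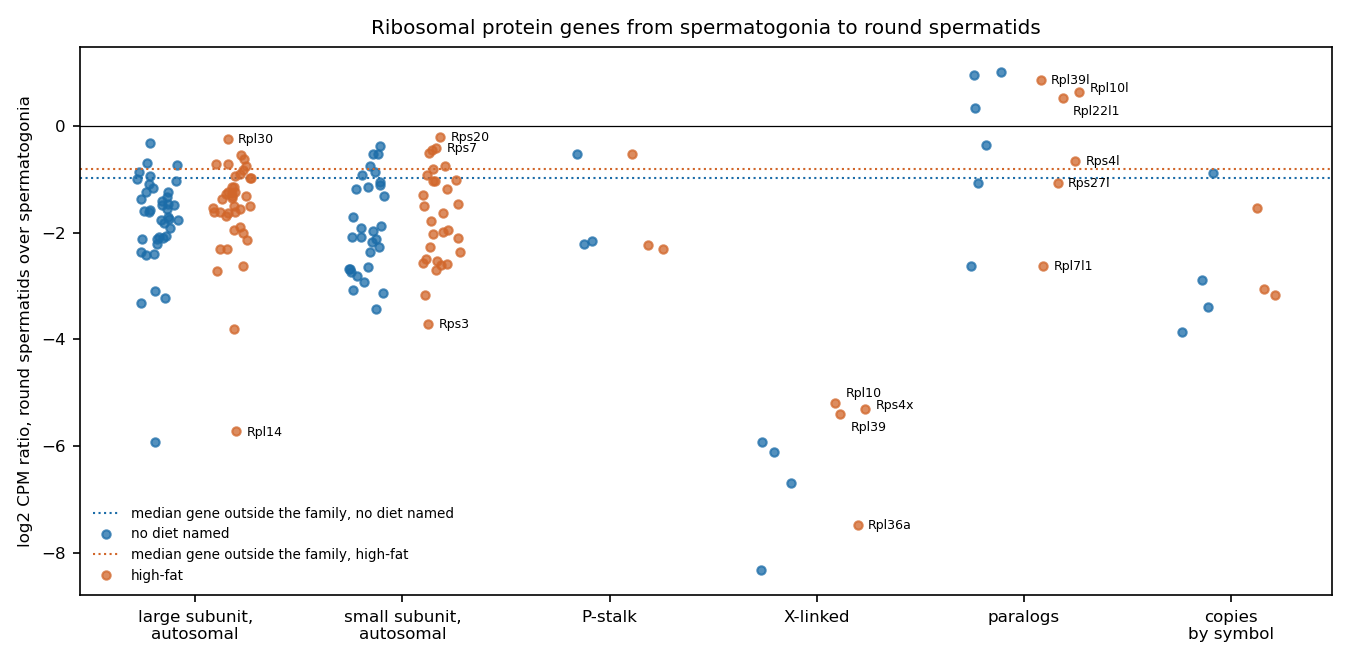
Log2 ratio of CPM in round spermatids over spermatogonia (y axis) for each member compared, 1 point per gene and library, by class of member (x axis); dotted lines mark the median gene outside the family, at -0.98 and -0.81. The large-subunit genes centre at -1.60 and -1.36, the small-subunit genes at -2.01 and -1.70, and the X-linked genes at -6.41 and -5.35, while Rpl39l, Rpl10l and Rpl22l1 lie above zero in both libraries.

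The P-stalk, a flexible arm of the large subunit that recruits translation factors, held unequal ratios. Rplp0, its base, had a log2 ratio of -0.53 in both libraries in round spermatids over spermatogonia. Rplp1 had -2.15 and -2.22, and Rplp2 -2.21 and -2.31. Rplp0 and the 2 acidic proteins that bind it therefore differed by over 1 log2 unit within each library, on any scaling of the libraries.

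Much of the lower share was already present at the start of meiosis. In leptotene and zygotene cells the autosomal core had a median log2 ratio over spermatogonia of -0.94 and -0.64, where all genes had -0.01 and -0.05. At least 2-fold lower levels were found for 34 of 73 and 21 of 73, against 22.9% and 19.9% of all genes. In pachytene cells the median over spermatogonia was -1.19 in the library with no diet named and -0.65 in the high-fat library, with 44 of 73 and 26 of 73 genes at least 2-fold lower and 44.2% and 44.4% of all genes so. On the median-ratio scale these pachytene medians were -0.56 and 0.02, so that in the high-fat library 34 of 73 genes lay below zero and 39 above. From pachytene to round spermatids the core medians were -0.45 and -0.77, against -0.07 and 0.03 over all genes, and from early to late round spermatids they were -0.59 and -0.46.

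The 4 X-linked core genes were close to absent from pachytene onward. Together they made up 0.0686% and 0.0551% of UMIs in spermatogonia and 0.000425% and 0.000532% in pachytene cells. In late round spermatids they made up 0.000628% and 0.000785%. All X-linked coding genes together made up 0.994% and 1.03% in spermatogonia and 0.0706% and 0.0849% in pachytene cells, and 0.766% and 1.06% in late round spermatids. The X-linked ribosomal protein genes thus stayed low in late round spermatids, in which the summed X-linked share was again near its level in spermatogonia. In elongating spermatids the 4 genes were at 0.0118% and 0.00984%, and the Sertoli genes used to judge foreign RNA were there at 1587% and 903% of their level in the whole library. The part of such RNA in the elongating values was not tested, and those values are given without further reading.

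Each X-linked gene had its own course before pachytene. Rpl36a, of the large subunit, had 412 CPM in spermatogonia, 154 CPM in leptotene and zygotene cells and 1.04 CPM in pachytene cells in the library with no diet named, and 335, 153 and 1.71 CPM in the high-fat library. Rpl39 was instead highest in leptotene and zygotene cells among germ cells, at 288 and 282 CPM, against 123 and 93.0 CPM in spermatogonia. Rps4x, a small-subunit gene with a Y-linked relative in primates, had 51.9 and 56.5 CPM in spermatogonia, 17.97 and 9.81 CPM in leptotene and zygotene cells, and 0.983 and 1.08 CPM in pachytene cells. In round spermatids over spermatogonia the log2 ratios were -8.33 and -7.48 for Rpl36a, -6.70 and -5.20 for Rpl10, -6.11 and -5.40 for Rpl39 and -5.93 and -5.30 for Rps4x. All 4 lay far below the autosomal median in both libraries, on either scale, since the median-ratio scale shifts every gene of a library alike.

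Rpl10 encodes a protein needed for the large subunit to join the small one, and from pachytene on almost every UMI of its pair was Rpl10l. In the library with no diet named, Rpl10 had 98.4 CPM in spermatogonia, 47.5 CPM in leptotene and zygotene cells and 0.867 CPM (0.585 to 1.24) in pachytene cells, and stayed between 0.658 and 1.15 CPM through late round spermatids. In the high-fat library Rpl10 had 66.4, 48.3 and 0.929 CPM (0.601 to 1.37) at the same first stages. Rpl10l had 116 CPM in spermatogonia, 157 in leptotene and zygotene cells, 248 in pachytene cells, 294 near the divisions, 291 in early, 227 in middle and 115 in late round spermatids, and 59.7 in elongating spermatids in the library with no diet named. In the high-fat library the same stages had 200, 211, 408, 474, 448, 368, 210 and 110 CPM. In both libraries the Rpl10l level was highest near the divisions and next highest in early round spermatids.

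Pachytene cells held 8569 Rpl10l and 30 Rpl10 UMIs in the library with no diet named, so that Rpl10l made up 99.65% of the pair (99.50 to 99.76). The high-fat library held 10984 and 25, a share of 99.77% (99.67 to 99.85). In spermatogonia Rpl10l made up 54.1% (49.8 to 58.3) and 75.1% (72.1 to 77.9). Free RNA was estimated at 31% and 41.4% of spermatogonial UMIs, and subtracting it left 60.5 and 79.1 CPM of Rpl10l and a share of 30.2% and 42.5%. Sertoli cells, in which free RNA was estimated at 81% and 91.1% of UMIs, had 164 and 207 CPM of Rpl10l. Rpl10l had 1.94-fold (1.73 to 2.18) and 1.57-fold (1.45 to 1.70) the spermatogonial CPM in round spermatids, before any subtraction.

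At the level of single cells, 81.7% of pachytene cells in the library with no diet named and 90.7% in the high-fat library held at least 1 UMI of Rpl10l. Rpl10 was seen in 1.66% and 2.57% of them. Thinned to 1000 UMIs per cell, with no cell left out, these shares were 20.5% and 31.02% for Rpl10l and 0.123% and 0.107% for Rpl10. In Sertoli cells, at median depths of 1332 and 1543 UMIs against 15078 and 19520 in pachytene cells, Rpl10l was seen in 18.3% and 28.6%, and in 12.3% and 17.2% after thinning. The share of cells with a UMI therefore depended strongly on depth, while the gap between the genes remained.

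Rpl39l was the most abundant member of the whole family in the cells near the divisions and in early and middle round spermatids of both libraries, by UMI counts with no length correction, and ranked 41 and 42 in spermatogonia. Its level by stage, in the order used for Rpl10l, was 965, 1170, 1827, 2297, 2309, 1989, 1322 and 946 CPM in the library with no diet named. In the high-fat library it was 963, 888, 1760, 2243, 2216, 1988, 1386 and 804 CPM. Rpl39 had 1.36 and 1.60 CPM in pachytene cells. Parent and paralog have the same coding length, and their UMIs in pachytene cells were 47 against 63198 and 43 against 47348, an Rpl39l share of 99.93% (99.90 to 99.95) and 99.91% (99.88 to 99.93).

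The Rpl39l share before pachytene was also high on the face of it, at 88.7% and 91.2% in spermatogonia and 80.3% and 75.9% in leptotene and zygotene cells. Sertoli cells had 1304 and 1177 CPM of Rpl39l, with the free RNA estimates given above. Lymphoid cells had 1329 and 728 CPM of Rpl39l beside 1538 and 2554 CPM of Rpl39, an Rpl39l share of 46.4% and 22.2%. After subtraction of free RNA, spermatogonia had 515 and 323 CPM of Rpl39l in place of 965 and 963, and a share of 74.9% and 69.4%. In round spermatids Rpl39l had 2.03-fold (1.95 to 2.11) and 1.83-fold (1.77 to 1.90) the CPM of spermatogonia. Among pachytene cells 97.1% and 98.5% held an Rpl39l UMI, and 82.5% and 80.4% after thinning. Among lymphoid cells, at median depths of 1930 and 2368 UMIs, the shares were 74.6% and 75.6%, and 62.7% and 44.3% after thinning. A UMI of Rpl39l was thus also common in cells outside the germ line. Free RNA was estimated at 27.3% and 47.9% of lymphoid UMIs, and how much of the lymphoid Rpl39l it accounts for was not tested.

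**Figure D3:**
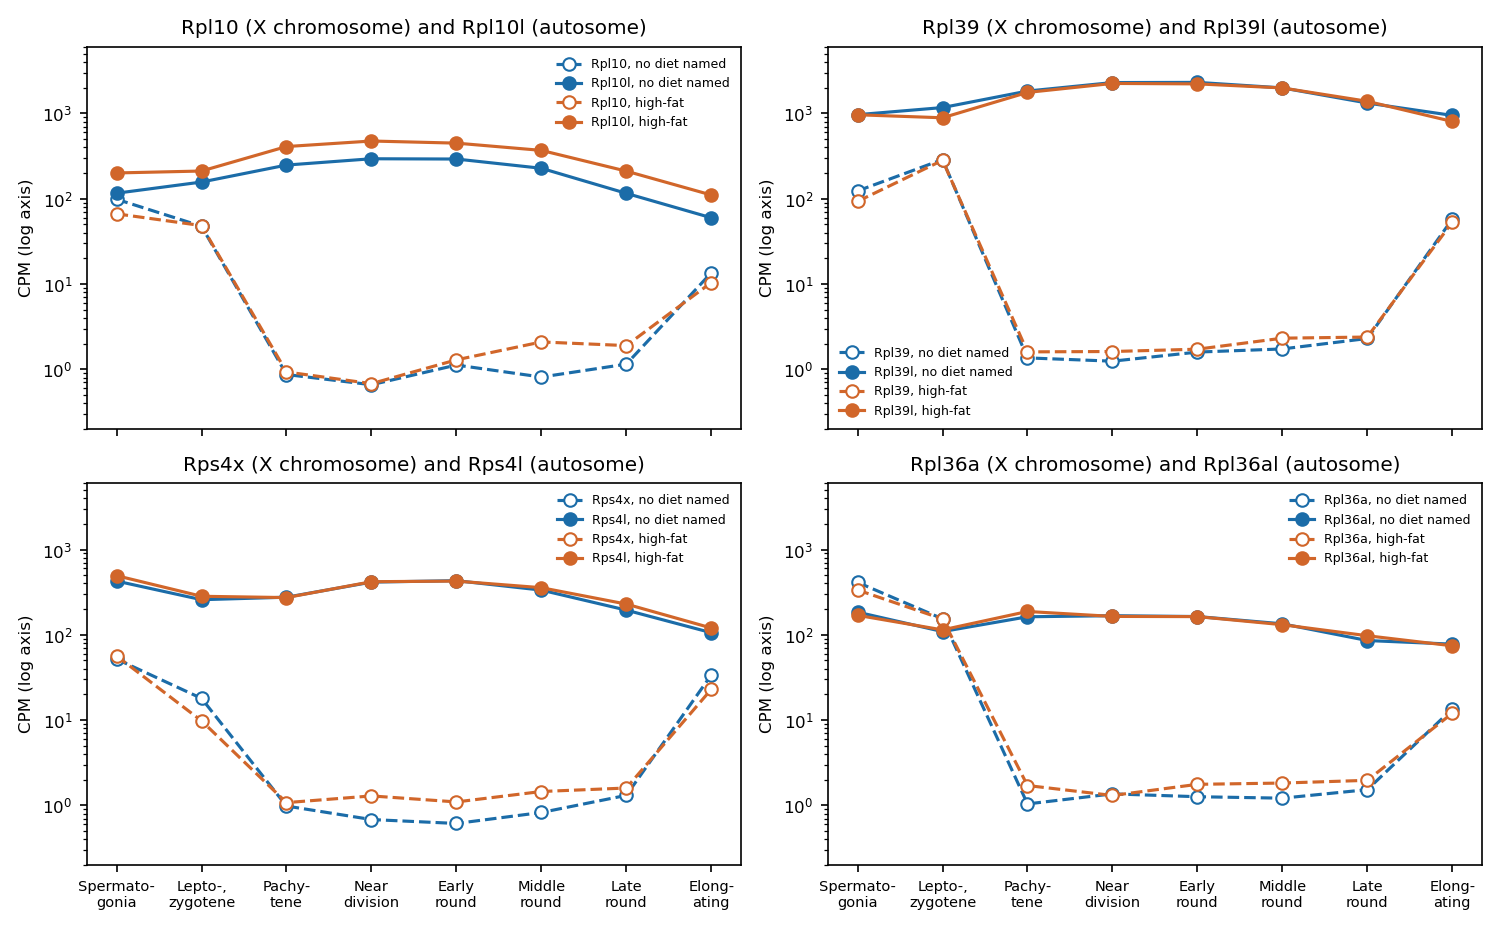
Level in CPM (log axis) of each X-linked parent (open points, dashed) and its autosomal relative (filled points) by germ cell stage (x axis) in both libraries, each point a sum over cells. From pachytene cells to late round spermatids the parents lie between 0.614 and 2.39 CPM, while Rpl10l lies between 115 and 474 CPM and Rpl39l between 1322 and 2309 CPM.

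Rps4l and Rpl36al likewise held nearly all UMIs of their pairs from pachytene on. Rps4l had 427 and 494 CPM in spermatogonia, 258 and 283 in leptotene and zygotene cells, 276 and 273 in pachytene cells, 415 and 419 near the divisions, and 195 and 229 in late round spermatids. Its share of the pair with Rps4x was 89.1% and 89.7% in spermatogonia and 99.6% in pachytene cells of both libraries, against 20.4% and 6.06% in lymphoid cells. The log2 ratio of Rps4l in round spermatids over spermatogonia was -0.35 and -0.65, and 0.63 and 0.16 on the median-ratio scale, so its direction flips with the scaling. Rpl36al, which the symbol rule leaves out, had 184 and 169 CPM in spermatogonia and 163 and 188 CPM in pachytene cells, and its share of the pair with Rpl36a was 30.9% and 33.5% and then 99.4% and 99.1%. The share of Rpl36al thus rested on the level of Rpl36a, and that of Rpl39l and Rpl10l on both members of the pair.

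The 7 paralogs together made up 2.32% and 2.52% of the family's UMIs in spermatogonia, 6.73% and 5.33% in pachytene cells and 9.23% and 8.38% in early round spermatids. Paralogs of autosomal parents followed courses of their own. Rpl22 encodes an RNA-binding large-subunit protein that ribosomes can do without, and its relative Rpl22l1 shares 74.6% of 299 aligned bases. Rpl22 had 1249 and 938 CPM in spermatogonia, 217 and 282 in pachytene cells and 128 and 123 near the divisions, while Rpl22l1 had 212 and 157, 251 and 211, and 308 and 284 CPM. The Rpl22l1 share of the pair was thus 14.5% and 14.4%, 53.6% and 42.8%, and 70.6% and 69.7%. The order of this autosomal pair thus differed between spermatogonia and the cells near the divisions, with the parent well detected at both.

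Rps27l, a small-subunit relative of Rps27, was highest in leptotene and zygotene cells, at 765 and 708 CPM, against 382 and 344 CPM in spermatogonia and 251 and 269 CPM in pachytene cells. Its share of the pair with Rps27 was 17.99% and 21.2% in spermatogonia, 27.4% and 29.7% in leptotene and zygotene cells and 14.9% and 15.4% in round spermatids. Rpl7l1, a relative of Rpl7 that takes part in building the large subunit, had 70.5 and 66.7 CPM in spermatogonia and 3.82 and 5.61 CPM in late round spermatids, a log2 ratio of round spermatids over spermatogonia of -2.62 in both libraries. Its share of the pair with Rpl7 went from 17.8% and 18.9% to 2.17% and 3.21% in late round spermatids. Of the paralogs with an autosomal parent, Rpl22l1 was the one with higher CPM in round spermatids than in spermatogonia, with log2 ratios of 0.35 and 0.53.

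A list of 7 other autosomal retrocopies of X-linked genes was set beside these pairs (Pgk2, Pdha2, Cetn1, Rbmxl2, G6pd2, Cstf2t and Utp14b). In both libraries each of the 7 made up more of its pair in pachytene cells than in spermatogonia. These shares are without subtraction of free RNA, which was estimated at 31% and 41.4% of spermatogonial UMIs. The 7 retrocopies together made up 0.0977% and 0.125% of UMIs in spermatogonia and 0.254% and 0.285% in pachytene cells. How much of their level in spermatogonia is free RNA was not tested. Pgk2, the retrocopy of a glycolysis gene, made up 95.7% and 94.4% of its pair in spermatogonia, 99.72% and 99.69% in pachytene cells and 98.92% and 98.84% in late round spermatids. Cetn1, of a centriole protein, made up 91.8% and 94.3% in spermatogonia, 99.96% in pachytene cells of both libraries and 99.56% and 99.48% in late round spermatids. G6pd2, of a glucose phosphate dehydrogenase, made up 30.8% and 28.6% in spermatogonia, 90.7% and 95.2% in pachytene cells and 99.4% and 98.03% in late round spermatids, with 8 and 12 of its own UMIs in spermatogonia. Cstf2t, of an mRNA processing factor, made up 34.8% and 21.1% of its pair in spermatogonia, 90.4% and 84.3% in pachytene cells and 2.51% and 3.08% in late round spermatids. Utp14b, of a ribosome assembly factor, made up 34.1% and 27.1%, then 89.4% and 81.2%, then 9.74% and 10.4%. In late round spermatids Rpl10l still made up 99.0% and 99.1% of its pair. The parents of Cstf2t and Utp14b were thus detected again in late round spermatids, while Rpl10 had 1.15 and 1.89 CPM there.

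Genes whose course over the germ cell stages was most like that of a paralog were sought over 16 points, the 8 stages in each library, among 12040 genes. Points of 1 library share its depth and free RNA, so the correlations describe these libraries. Levels were not centred within a library, so a fixed difference between the libraries enters each correlation beside the course over stages. For Rpl10l that log2 difference was 0.63 over all kept cells, the high-fat library over the other. Most like Rpl10l was Mrpl39, of the mitochondrial ribosome, with a Pearson correlation of 0.969, followed by 1110035H17Rik, 1700100I10Rik, Pnpla2, Zbed3, Ak6, Mrpl11 and Gm49725. Most like Rpl39l was Acrbp, of the acrosome, at 0.995, followed by Ddx25, Ubl7, Pih1d1, Sccpdh, Slc30a3, 4930544G11Rik and Hsbp1. Rpl10l and Rpl39l had a correlation of 0.786 with each other. Against the sum of the core genes, Rpl39l stood at -0.29, Rpl22l1 at 0.01 and Rpl10l at 0.12. Core genes, which are themselves parts of that sum, ranged from 0.31 for Rpl26 to 0.987 for Rps25, with Rpl13 (0.42), Rps20 (0.48) and Rpl30 (0.49) next to Rpl26. Rpl26 and Rpl13 differed between the libraries by log2 ratios of 4.44 and 3.28 over all kept cells. Their low correlations thus need not mean an unlike course over the stages.

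Other genes of the translation machinery differed by group, where 48.6% and 44.7% of all genes were at least 2-fold lower in round spermatids than in spermatogonia. Of 35 ribosome biogenesis genes, which make and assemble ribosomes in the nucleolus, 28 were so in each library, with median log2 ratios of -2.48 and -2.60. Of 26 translation initiation genes, 8 and 9 were so, with a median of -0.56 in both libraries. Of 7 elongation genes 1 was so in each library, with medians of -0.66 and -0.56. The initiation and elongation counts were thus below the share of all genes and the biogenesis counts above it. By their median ratios, given above, the autosomal core genes lay between the biogenesis genes and the translation factors, as a description of these lists and of these 2 libraries. By the part of genes at least 2-fold lower, the core was not below the biogenesis genes in the library with no diet named.

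Between the libraries, the family's median ratio was near zero over all round spermatids, and in pachytene cells its direction depended on the cluster. In pachytene cells 87 members were compared, and the median log2 ratio of the high-fat library over the other was 0.30, against 0.07 over all genes. Of these members 9 were at least 2-fold higher, where 11.4% of all genes were, and 1 was as much lower, where 8.48% of all genes were. Cluster 8, the one pachytene cluster with many cells of both libraries, gave a median over members of -0.19, against -0.02 over all genes, with 5 of 85 members at least 2-fold higher and 2 lower, where 14.2% and 14.4% of all genes were. The family's share of UMIs was 6.04% and 5.58% in cluster 8, at median depths of 8901 and 20754 UMIs, and 4.03% in cluster 9 of the library with no diet named. The pachytene difference between libraries therefore turned with the mix of clusters and gives no direction for the family. In round spermatids the median over members was -0.02, against 0.05 over all genes, with 6 of 87 at least 2-fold higher and 1 lower, where 12.7% and 9.59% of all genes were. The libraries held different mixes of round spermatids, with 3797 middle and 973 late cells in the library with no diet named and 1213 and 1758 in the high-fat library. Within early, middle and late cells the medians over members were 0.02, 0.06 and 0.17, against 0.07, 0.02 and 0.11 over all genes, and the family's share of UMIs was higher in the high-fat library in each, as given above. These shares leave out counts on near-identical copies of the members, which differed between the libraries for several members, as given below. How much of the difference in share follows those copies was not tested. With copies added, the median over members in all round spermatids was -0.04.

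A few members differed between the libraries far more than the rest and in all 3 sets of cells given here. Rpl26, a large-subunit protein near the tunnel exit, had 34.2 CPM over all cells of the library with no diet named and 739 CPM in the high-fat library. Its log2 ratio was 4.66 in pachytene cells, 4.47 in cluster 8 and 4.36 in round spermatids. Rpl14 had 4.18, 2.78 and 3.25, Rpl13 had 3.13, 2.70 and 3.29, and Rpl35a had 2.89, 2.48 and 2.78, all of them large-subunit genes. The lowest ratio belonged to Rpl32l, at -1.75 in pachytene cells and -2.06 in round spermatids, on 26 against 6 and 57 against 11 UMIs. Rps3a3 had -0.68 and -0.60, Rpl22l1 -0.25 in pachytene cells, with 0.31 in cluster 8, and Rps23 -0.12. In round spermatids Rpl10a had -0.98 and Rps3 -0.52. Rpl10l was higher in the high-fat library by 0.72 in pachytene cells, 0.63 in cluster 8 and 0.48 in round spermatids.

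**Figure D4:**
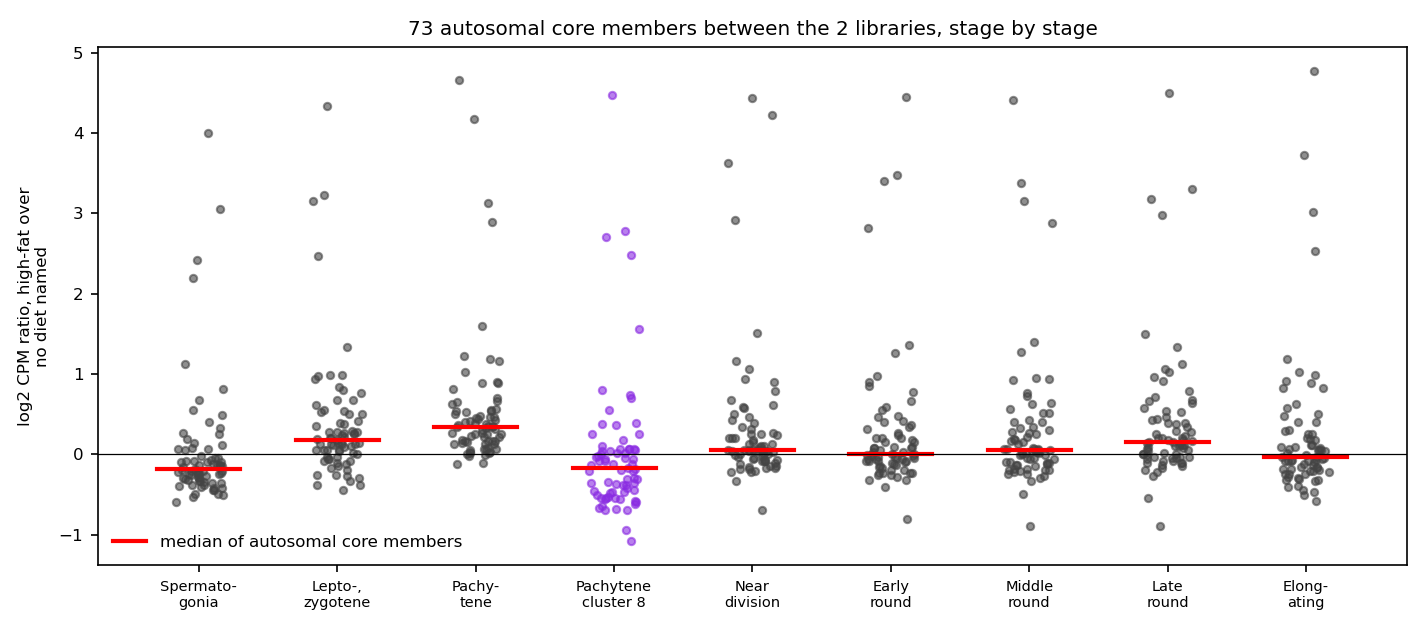
Log2 ratio of CPM, the high-fat library over the library with no diet named (y axis), for each of the 73 autosomal core genes (points) by stage and in pachytene cluster 8 (x axis), with red lines at the median. The median is 0.35 in pachytene cells and -0.17 in cluster 8, and Rpl26 lies highest of the 4 genes that stand apart, at 4.66 and 4.47.

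Reads of a ribosomal protein gene can also fall on its processed copies, so the counts of near-identical copies were set beside those of each member. Copies with at least 90% identity over 60% of the coding sequence, and with counts, were found for 80 of the 89 members, 923 copies in all. A copy here is any annotated gene outside the family with such a match, whatever its kind, such as Wdr89 for Rplp2. Each was added to the 1 member it matched best. Rps12 thus had 0 copies, while 13, among them Rps12-ps9, went to Rps12l1. For Rpl26 the closest copy with many counts was Gm15772, a processed pseudogene at chr5:3236431-3236868 on the plus strand, with 1 exon, which differs from the coding sequence of Rpl26 (chr11:68901583-68906989, plus strand) at 2 of 435 bases. The stretch that holds both differences, bases 147 to 318, is shown with the differing bases in capitals.
Rpl26: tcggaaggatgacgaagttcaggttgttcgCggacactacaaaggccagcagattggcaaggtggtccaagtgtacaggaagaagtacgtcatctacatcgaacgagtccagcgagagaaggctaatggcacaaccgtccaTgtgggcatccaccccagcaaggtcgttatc
Gm15772: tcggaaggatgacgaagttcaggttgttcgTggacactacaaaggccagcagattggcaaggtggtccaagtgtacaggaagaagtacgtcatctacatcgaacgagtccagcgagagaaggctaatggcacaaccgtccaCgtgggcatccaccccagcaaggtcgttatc
A read that lies within the 435 coding bases and covers neither capital cannot be assigned to one of the 2 by its letters.

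For several members the copies differed between the libraries the opposite way. Gm15772 had 430 CPM over all cells in the library with no diet named and 2.97 CPM in the high-fat library. With copies added, the log2 ratio of Rpl26 was 0.67 in place of 4.44. That of Rpl14 was 1.09 in place of 3.87, with Rpl14-ps1 as its main copy, and that of Rpl13 was 1.16 in place of 3.28, with Gm6218. Rps13 had 0.24 in place of 1.01, with Rps13-ps1, and Rpl11 -0.01 in place of 0.49, with Gm10036. Rpl21 had 0.76 in place of 1.19, with Rpl21-ps15. Rpl35a, at 2.63 in place of 2.83, and Rpl34, at 1.34 in place of 1.43, kept most of their difference. Over all kept cells 7 of 89 members were at least 2-fold higher in the high-fat library, where 11.3% of all genes were, and 1, Rpl32l, was as much lower, where 7.98% were. With copies added 4 were higher (Rpl35a, Rpl34, Rpl13 and Rpl14). Whether reads were divided alike between genes and copies in both deposited tables was not tested for any member. The single-gene ratios between the libraries are therefore uncertain, above all for members that moved far with copies added, such as Rpl26, Rpl14, Rpl13 and Rps13.

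**Figure D5:**
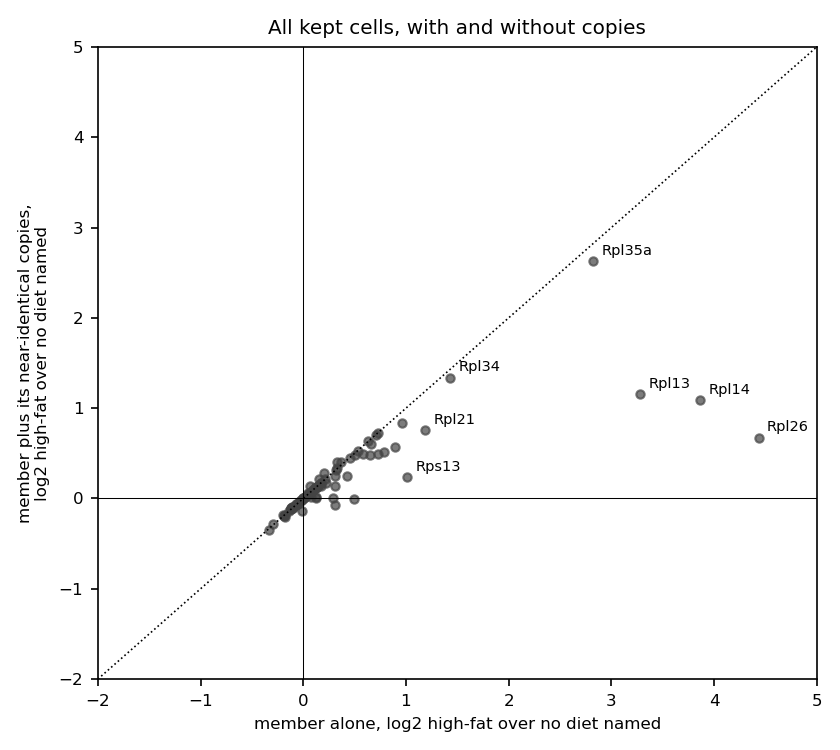
Log2 ratio of CPM over all kept cells, the high-fat library over the library with no diet named, for each member with counted copies, alone (x axis) and with the counts of its near-identical copies added (y axis); the dotted line marks equal values. Adding copies moves Rpl26 from 4.44 to 0.67, Rpl14 from 3.87 to 1.09 and Rpl13 from 3.28 to 1.16, and Rpl35a from 2.83 to 2.63.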

How the data were processed

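Single-cell RNA libraries of dissociated mouse testis were made with a DNBelab C series droplet kit, per the labels' protocols. The deposited matrices hold whole-number UMI counts per gene and cell barcode. The file headers name PISA 1.0 and the submitters' processing notes name Cell Ranger 2.1.1. The aligner, genome build and annotation behind the counts were not given in the sources used here. Gene IDs were matched without version to GENCODE M21 (39109 of 39232, 99.7%), which gave positions and sequences. Barcode names are running numbers, of which 1507 occur in both libraries, so shared cells could not be looked for by barcode.

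Cells with at least 500 UMIs, at least 250 genes and at most 20% mitochondrial UMIs were kept (2 and 3 barcodes removed), and doublets scored with simulated pairs were left out (517, 3.75%, and 462, 3.65%). Both libraries were clustered together, without integration, in scanpy 1.11.5 and leidenalg 0.10.2 (2000 variable genes without the members, 50 components, 20 neighbours, resolution 1). A cluster took the name of the fixed list that had the largest number of markers in the 10 genes of highest fold. Ties went to the list whose score was nearest to its best in any cluster, and clusters with no marker there took the highest score. A name needed a score of at least 0.25 and at least 3 detected markers. By score alone another list was higher in 4 named clusters: differentiating over undifferentiated spermatogonia in cluster 5 (both called spermatogonia here), elongating over late round in clusters 4 and 13, and Sertoli over elongating in cluster 21. These naming cut-offs were chosen with the clusters in view. Clusters 10 and 11 stayed unnamed. UMIs were summed per library and stage and scaled to CPM. A gene was compared where 1 of the 2 sums held at least 20 UMIs, and a 2-fold ratio was the size counted. Intervals are exact Poisson, conditional binomial or Clopper-Pearson (scipy 1.17.1), and were checked on simulated counts. The free RNA share of a class was estimated as the level of foreign genes over their level in all kept cells of that library. Foreign genes were those of elongating spermatids, or those of Sertoli cells where the class was spermatids. The estimate takes free RNA to have the make-up of all kept cells, which was not tested. It was subtracted as an alternative, except in elongating spermatids.

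Members, gene lists, markers and comparisons were chosen with earlier results of these data known. Named with values were the paralogs and their parents, the X-linked and P-stalk genes, the 6 highest and 6 lowest ratios of round spermatids over spermatogonia, the 4 members with most and 4 with fewest UMIs, and the 4 highest and 4 lowest ratios between libraries in pachytene cells and in round spermatids. Other members named beside these (Rpl34, Rps13, Rpl11, Rpl21, Rps12, Rps25 and those with opposite signs) were chosen after their values were seen.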

Additional observations from a re-analysis of the deposited data

Results flagged for a closer look

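In pachytene cells over spermatogonia, 7 members had a ratio on opposite sides of zero in the 2 libraries, with neither counting interval holding zero. The log2 ratios, with the library with no diet named first and the high-fat library second, were -0.23 and 0.29 for Rps20 and -0.50 and 0.14 for Rpl7. They were -0.11 and 0.48 for Rpl9, -0.27 and 0.062 for Rps7, and -0.38 and 0.16 for Rpl7a. Rplp0 had -0.24 and 0.21, and Rps13 had -0.25 and 0.12. The difference between the libraries was not tested, since each is 1 sample. For Rpl29, Rpl11 and Rpl24 the signs also differed, but a counting interval held zero.

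Different clusters held most pachytene cells of the 2 libraries. With the cells of cluster 8 alone, the ratios in the library with no diet named were 0.33 for Rps20, 0.26 for Rpl7, 0.07 for Rpl9 (with an interval of -0.02 to 0.16, which holds zero), 0.35 for Rpl7a, 0.11 for Rplp0 and 0.14 for Rps13. Rps7 kept opposite signs there, at -0.49 and 0.07.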

How the results depend on the processing

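No paired analysis was possible because each group is 1 library. Of 69 alternative values, 39 stayed within the counting interval or the order-statistic interval of the main value, 27 left it in the same direction and 3 changed sign. The log2 ratio of the family's share, round spermatids over spermatogonia, was -1.48 in the library with no diet named and -1.31 in the high-fat library. It was -1.47 in the first with the members among the variable genes, -1.32 and -1.26 with each library clustered alone, -1.29 and -1.21 with doublets kept, -1.53 and -1.37 with at least 2000 UMIs per cell, and -1.30 and -1.21 with each cell placed by its highest marker score. It was -1.29 and -1.13 with cells weighted equally, -1.90 and -1.81 with free RNA subtracted, -0.50 and -0.50 with median-ratio scaling, and -1.49 and -1.31 with copies added. In pachytene cells the Rpl10l share was 99.82% and 99.98% with free RNA subtracted, and 99.47% in cluster 8 of the library with no diet named. The Rpl39l share was 99.89% and 99.76% with cells weighted equally, 99.98% and 100% with free RNA subtracted, and 99.88% in cluster 8 of the library with no diet named. The median ratio of members between libraries in pachytene cells, 0.30, was 0.21 by marker score, 0.21 with median-ratio scaling and -0.19 in cluster 8. In round spermatids, -0.02 became 0.041 with each library clustered alone and 0.026 by marker score. The causes of these moves were not tested. Adding copies and using cluster 8 alone were chosen after seeing the data. Depth limits values that rest on few UMIs, such as Rpl10 with 30 and 25 in all pachytene cells and Rpl32l with 26 and 6.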

Other observations

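The family's share of UMIs in the somatic cells of the same libraries was highest in lymphoid and lowest in Sertoli or Leydig cells. It was 10.4% and 18.5% in lymphoid cells, 8.91% and 12.7% in endothelial cells, 4.90% and 7.06% in stroma, 4.69% and 3.94% in Leydig cells and 4.05% and 4.4% in Sertoli cells, with the library with no diet named first. Estimated free RNA made up 81% and 91.1% of Sertoli UMIs, 29.3% and 90.2% of Leydig, 48.4% and 60.1% of stromal, 30.1% and 24.6% of endothelial and 27.3% and 47.9% of lymphoid UMIs. With it subtracted the shares were 12.7% and 29.6% in lymphoid cells, 11.1% and 15.3% in endothelial cells, 5.93% and 10.8% in stroma, 4.94% and 1.19% in Leydig cells and 3.84% and 3.07% in Sertoli cells. The endothelial cluster also held markers of myoid cells.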
